A study of Mus musculus with 9 samples.

Results

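The genes described here are 10 G protein-coupled receptors whose ligands are metabolites or signalling lipids: Ffar2, Ffar4, Hcar1, Hcar2, Sucnr1, Adora1, Adora2b, Lpar1, S1pr1 and S1pr2. They were taken by symbol from 19094 genes listed in at least 1 sample, and all 10 were among the 13154 genes that passed the filter on low counts and were tested. The cells were 3T3-L1, a line of mouse preadipocytes that fill with lipid droplets once induced, and their RNA was sequenced at day 0, day 4 and day 8 with 3 replicates per day. Day 0 cells had not met the induction medium. Day 4 cells had had 2 days of induction medium, with dexamethasone, IBMX and insulin, and then 2 days of maintenance medium with insulin. Day 8 cells had had 4 further days of maintenance medium. No genotype or other treatment distinguished the groups, and all came from 1 cell line. Day 4 against day 0 is called the early phase, day 8 against day 4 the late phase and day 8 against day 0 the whole process. The early phase and the whole process share the day 0 samples, and both phases share the day 4 samples. Per the study's methods, cells of a stage were pooled and the samples were mixtures of RNA, and no label speaks of separate cultures. The p-values therefore measure the spread between these samples, which may be technical. The samples held 18216114 to 20452144 estimated read counts each.

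The sample labels call every sample adipocytes, and their extraction protocol speaks of DRG, a usual short form for dorsal root ganglia. The measured markers were compared with both. Of the 10 adipocyte markers, 10 were upregulated in the early phase, where 9.77% of all tested genes were. Among them was Adipoq (adiponectin), with day means of 0.503, 467 and 820 FPKM at days 0, 4 and 8. FPKM is a fragment count divided by transcript length and library depth, and genes are compared here on this scale alone. At day 0 Plin1 was at 0.177 FPKM and Lep was not listed, while Lpl was at 117, so the label does not describe the day 0 cells. Any marker near 0 at day 0, such as Lep, passed the filter on low counts through later days and had to differ from day 0. The 9 markers of the fibroblast state summed to 3714 to 4032 FPKM in the day 0 samples, 2811 to 2988 in those of day 4 and 5853 to 5919 in those of day 8. Most of these sums came from the collagens Col1a1 and Col3a1 and, at day 0, from Dlk1, an inhibitor of fat cell formation, while Fap was at means of 0.07, 0.66 and 1.52 FPKM. Dlk1 and Ly6a were downregulated in the early phase, and Fap was upregulated. In the late phase 4 of the 9 were upregulated, where 4.24% of all tested genes were. They were Dlk1, Col3a1, Dcn and Fap, with log2 fold changes of 1.24, 1.26, 1.80 and 1.24. Among 13 markers of sensory neurons, Pou4f1 was not listed and the means of Scn10a and Nefh were at most 0.00333 FPKM on any day. The sum of that list was 1.83 to 3.19 FPKM per sample. Avil was its most abundant gene in the mean over the 9 samples, at day means of 2.32, 0.513 and 0.483 FPKM. At days 4 and 8 it was below Snap25. Snap25, of the machinery of vesicle release, was at means of 0.0267 and 1.12 FPKM at days 0 and 4, was upregulated in the early phase (log2 fold change 5.45, SE 0.47, edgeR adjusted p = 3.3e-08) and was not called in the late phase. Since Snap25 was near 0 at day 0, it passed the filter on low counts through the later days and had to differ from day 0. Calca was at 0.25 FPKM at day 8 and not listed on the earlier days. The list of 6 Schwann cell markers was carried by Pmp22, at 150 FPKM over the 9 samples, while the day means of Sox10 stayed at or below 0.0267 FPKM.

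Receptors of this kind sit in the plasma membrane and tell a cell how much of a nutrient or lipid lies outside it. In fat cells, Hcar1, Hcar2, Ffar2 and Adora1 are known to couple to inhibitory G proteins, which lower cyclic AMP and thereby slow the release of fatty acids from stored fat. Adora2b raises cyclic AMP, Ffar4 signals mainly through Gq, and Lpar1 and the receptors for sphingosine 1-phosphate are widely expressed in fibroblasts, where they act on adhesion, movement and growth.

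The 10 receptors fell into those near 0 at day 0 and those already present. Ffar2, Ffar4, Hcar1, Hcar2, Sucnr1 and Adora1 had 0 to 2 counts in the 3 day 0 samples together. Adora2b, Lpar1, S1pr1 and S1pr2 were measured in every sample. In the early phase, 6 receptors were upregulated and 2 (Adora2b and S1pr1) downregulated by edgeR at an adjusted p under 0.05 and a change above 2-fold, where 9.77% of all tested genes were upregulated and 7.98% downregulated (17.8% in either direction). In the whole process, 6 were upregulated and 1 (Adora2b) downregulated, where the shares of all tested genes were 10.3% and 7.70%. The 6 upregulated receptors passed the filter only through the days on which they were present, so they had to differ from day 0, and their number is given as a description. In the late phase, Ffar2, Ffar4, Hcar1, Hcar2, Sucnr1 and S1pr1 were upregulated and none was downregulated, where 4.24% and 2.81% of all tested genes were (7.05% together). DESeq2 also called 0 of the 10 downregulated in the late phase, and 1, Lpar1, was lower at an unadjusted p under 0.05 by edgeR. Sucnr1 passed the filter only through day 8, and the same limit holds for its late phase. RNA was taken from whole cultures, so more cells of a kind and more RNA per cell cannot be told apart in any of these values.

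**Figure D1:**
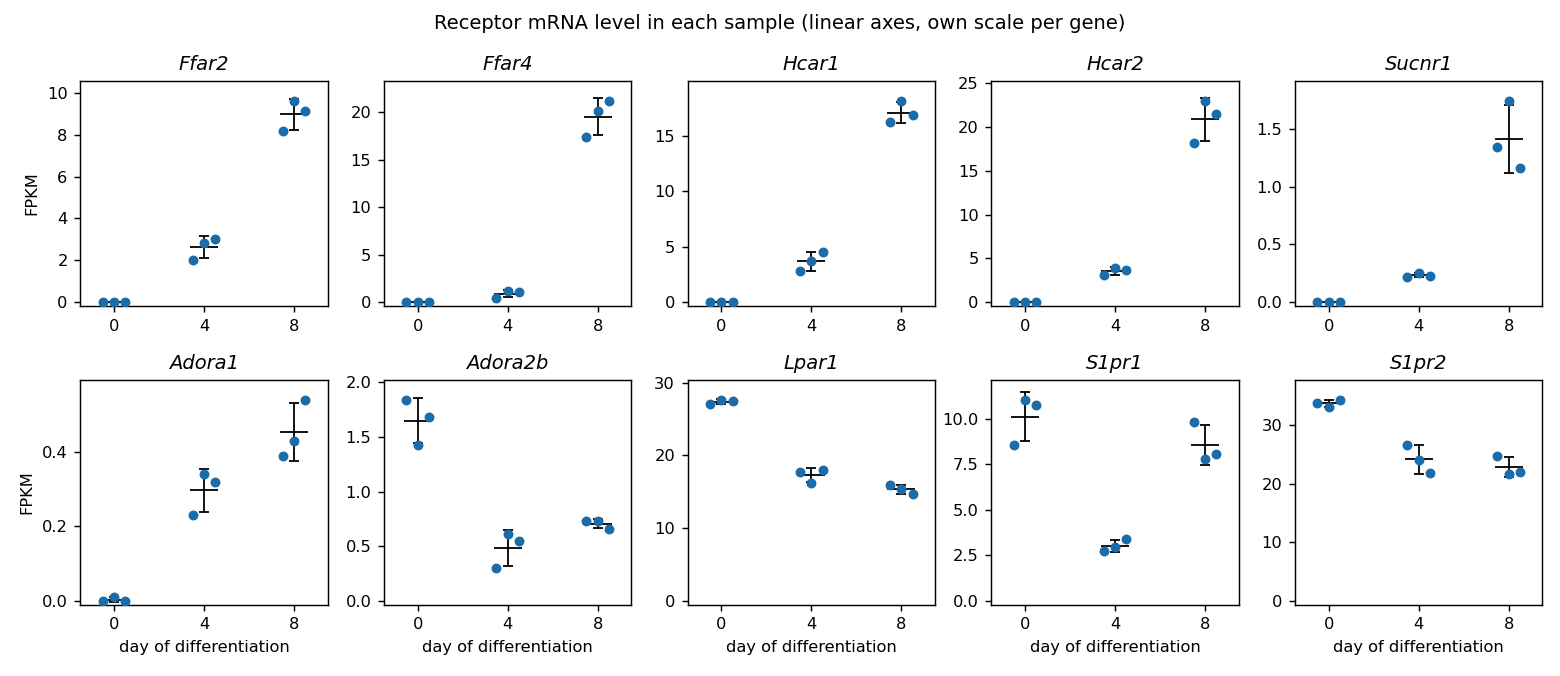
Level of each receptor mRNA in FPKM (vertical axes, linear, own scale for each gene) against the day of differentiation, with 1 point per sample in the order of the replicate number, the mean as a horizontal line and the SD as the error bar (n = 3 per day). The first 6 panels start at or near 0 at day 0, S1pr1 dips to a mean of 3.01 FPKM at day 4, and Adora2b, Lpar1 and S1pr2 are highest at day 0.

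Ffar4 (NCBI gene ID 107221) responds to long-chain fatty acids, the kind that fat cells take up and release. It was not listed in any of the 3 day 0 samples. At day 4 it was at 0.47, 1.14 and 1.07 FPKM, from 13, 32 and 29 counts. At day 8 it was at 17.4, 20.1 and 21.2 FPKM. All day 8 samples lay far above all day 4 samples, and the late phase rise was a log2 fold change of 4.50 (SE 0.19, edgeR adjusted p = 1.8e-10). Its 95% interval, 4.13 to 4.86, did not overlap that of any other of the 10 receptors, and only 7 of the 13154 tested genes had a higher value in the late phase. Against day 0 no fold can be given, since no count was seen there. With 3 counts per day 0 library as the lowest measurable level, a mean of 0.147 CPM after TMM scaling (counts scaled to library size), Ffar4 was at least 8.43-fold higher at day 4 and at least 191-fold higher at day 8 by the day means, and at least 4.42-fold and 168-fold higher by the lowest sample of each day.

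Ffar2 (233079) responds to short-chain fatty acids such as acetate and propionate. At day 0 it had 1 count in 1 sample. It was at 2.03, 2.85 and 3.01 FPKM at day 4 and at 8.17, 9.61 and 9.16 FPKM at day 8, with no overlap between the days. The late phase rise was a log2 fold change of 1.84 (SE 0.14, edgeR adjusted p = 1.9e-08), smaller than that of Ffar4. The ratio to the single day 0 count was 333 at day 4 and 1190 at day 8, with 95% counting intervals of 59.3 to 13177 and 213 to 47036. The relatives Ffar1 and Ffar3 were not listed in any sample. Ffar3 lies next to Ffar2 on chromosome 7.

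The 250 bases before the annotated start of both genes are printed to show what sequence lies ahead of receptors that went from near 0 at day 0 to a high level at day 8. RefSeq entries of build GRCm38.p6 were found for 8 of the 10 receptors, all but Hcar2 and S1pr1. Capitals mark matches to motifs that were searched on both strands, and a match is a description of letters and not a binding site. The Ffar4 stretch, chr19:38096829-38097078 on the plus strand, has 61.2% G and C and 11 CpG, and none of the motifs. The Ffar2 stretch is that of the most upstream of 4 annotated starts, chr7:30823776-30824025 on the minus strand, with 56.8% G and C and 9 CpG. It holds TGACCT, the reverse complement of the nuclear receptor hexamer AGGTCA, 175 bases before the start and a C/EBP type match, TTGCNNAA read in reverse, 74 bases before it.
Ffar4: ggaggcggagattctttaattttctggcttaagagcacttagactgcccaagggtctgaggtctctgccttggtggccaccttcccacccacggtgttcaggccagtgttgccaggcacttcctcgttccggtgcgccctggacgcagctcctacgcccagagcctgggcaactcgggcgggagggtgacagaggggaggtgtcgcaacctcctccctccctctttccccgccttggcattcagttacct
Ffar2: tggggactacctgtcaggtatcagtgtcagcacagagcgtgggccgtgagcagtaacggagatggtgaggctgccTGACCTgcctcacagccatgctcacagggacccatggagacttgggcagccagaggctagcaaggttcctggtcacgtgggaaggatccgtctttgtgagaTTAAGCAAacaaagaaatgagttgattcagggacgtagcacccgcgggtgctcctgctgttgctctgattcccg
Of 27025 mouse genes with 32851 promoter entries of the same length, 15.8% had AGGTCA and 10.8% TTGCNNAA in at least 1 entry. The median promoter had 52.4% G and C and 6 CpG. AGGTCA was in 2 of the 8 receptors (Ffar2 and S1pr2) and TTGCNNAA in 1 (Ffar2). The palindromic glucocorticoid response element was also searched and occurred in 0.0111% of the genes and in 0 of the 8.

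Hcar1 (243270) is the receptor for lactate and Hcar2 (80885) that for beta-hydroxybutyrate and niacin. Their genes lie next to each other on chromosome 5. Hcar1 was at 0, 0 and 0.03 FPKM at day 0, at 2.81, 3.72 and 4.54 at day 4, and at 16.2, 18.1 and 16.8 at day 8. Hcar2 was at 0.03, 0 and 0.03 FPKM at day 0, at 3.09, 3.94 and 3.69 at day 4, and at 18.2, 23.0 and 21.5 at day 8. For both genes the 3 days did not overlap. The late phase log2 fold change was 2.26 for Hcar1 (SE 0.12, edgeR adjusted p = 3.3e-10) and 2.59 for Hcar2 (SE 0.11, edgeR adjusted p = 3.1e-11). Each had 2 counts at day 0. The ratio of day 8 to day 0 was 1799 for Hcar1 and 1295 for Hcar2, with 95% counting intervals of 498 to 14861 and 358 to 10701. The pair stayed near each other in level, with 0.991 ± 0.155 FPKM of Hcar2 per FPKM of Hcar1 at day 4 and 1.22 ± 0.0897 at day 8 (SD, n = 3).

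Sucnr1 (84112) is the receptor for succinate, a metabolite of the citric acid cycle. It had no count at day 0 and 7, 8 and 7 counts at day 4, worth 0.22, 0.25 and 0.23 FPKM. At day 8 it was at 1.34, 1.74 and 1.16 FPKM, above all day 4 samples. The late phase log2 fold change was 2.62 (SE 0.31, edgeR adjusted p = 8.8e-06). The change fell short of 2-fold where limma was run on log2(FPKM + 1), at a log2 value of 0.96. Against day 0, Sucnr1 was at least 2.50-fold higher at day 4 and at least 15.6-fold higher at day 8. It remained the least abundant of the 5 receptors that were near 0 at day 0 and upregulated in the late phase.

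The stretches before Hcar1 and Sucnr1 are printed for comparison with those of Ffar4 and Ffar2. The Hcar1 stretch is chr5:123880004-123880253 on the minus strand and the Sucnr1 stretch chr3:60081619-60081868 on the plus strand.
Hcar1: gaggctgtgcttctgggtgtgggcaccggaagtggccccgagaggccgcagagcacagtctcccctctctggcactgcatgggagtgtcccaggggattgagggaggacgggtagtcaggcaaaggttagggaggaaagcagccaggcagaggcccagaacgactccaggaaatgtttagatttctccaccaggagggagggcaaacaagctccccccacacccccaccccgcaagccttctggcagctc
Sucnr1: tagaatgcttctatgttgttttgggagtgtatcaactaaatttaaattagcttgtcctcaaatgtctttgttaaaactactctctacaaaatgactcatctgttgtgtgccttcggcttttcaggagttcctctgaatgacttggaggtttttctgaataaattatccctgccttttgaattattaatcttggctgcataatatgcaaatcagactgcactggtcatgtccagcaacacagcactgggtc
Neither stretch held any of the searched motifs. They differed in base composition, with 62.4% G and C and 6 CpG for Hcar1 and 38.0% G and C and 1 CpG for Sucnr1.

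Adora1 (11539) and Adora2b (11541) bind adenosine and are known for opposite effects on cyclic AMP, the first lowering and the second raising it. Adora2b was present at day 0, at 1.84, 1.43 and 1.68 FPKM. It was at 0.3, 0.61 and 0.55 FPKM at day 4 and at 0.73, 0.73 and 0.66 at day 8. All later samples lay below all day 0 samples. Adora2b was downregulated in the early phase (log2 fold change -1.69, SE 0.24, edgeR adjusted p = 1.2e-05) and in the whole process (-1.12, SE 0.23, edgeR adjusted p = 0.00035). The late phase change of 0.57 did not pass the test (SE 0.28, edgeR adjusted p = 0.103). Both calls of Adora2b fell short of 2-fold with limma on log2(FPKM + 1), at log2 values of -0.84 and -0.63.

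Adora1 was at 0, 0.01 and 0 FPKM at day 0, at 0.23, 0.34 and 0.32 at day 4, and at 0.39, 0.43 and 0.54 at day 8. It was the only receptor of the 10 that stayed under 1 FPKM on every day. Its ratio to the single day 0 count was 95.5 at day 4 and 148 at day 8, with 95% counting intervals of 16.7 to 3811 and 26.2 to 5900. The late phase log2 fold change was 0.63 (SE 0.24, edgeR adjusted p = 0.0379), under 2-fold. By DESeq2 the adjusted p was 0.0943, and with 1 sample left out edgeR gave up to 0.152 (without day 4 replicate 1). By the adjusted p alone, 22.5% of all tested genes were higher in this phase. Of the summed FPKM of both adenosine receptors, Adora1 made up 0.231 ± 0.401% at day 0, then 38.7 ± 4.14% at day 4, and 39.0 ± 5.35% by day 8 (SD, n = 3). Of the 50-base stretches of Adora1 transcripts, 17.4% also occur in Mybph, a neighbouring gene that did not exceed a mean of 0.0233 FPKM on any day. For the other 9 receptors that share was below 1%.

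Lpar1 (14745), a receptor for lysophosphatidic acid, was at 27.0, 27.6 and 27.4 FPKM at day 0. It was at 17.6, 16.2 and 17.9 FPKM at day 4 and at 16.0, 15.3 and 14.6 at day 8. Levels at day 0 lay above all later samples. The early phase log2 fold change was -0.60 (SE 0.05, edgeR adjusted p = 1.7e-08) and that of the whole process -0.73 (SE 0.05, edgeR adjusted p = 1.9e-09). Both passed the test on the adjusted p, as 33.7% and 36.2% of all tested genes did in the downward direction, and both were under 2-fold. In the late phase Lpar1 had a log2 fold change of -0.12 and did not pass (SE 0.05, edgeR adjusted p = 0.0623).

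S1pr1 (13609) and S1pr2 (14739) bind sphingosine 1-phosphate and differ in coupling, S1pr1 through inhibitory G proteins and S1pr2 also through other G proteins. S1pr1 was at 8.56, 11.0 and 10.7 FPKM at day 0, at 2.72, 2.93 and 3.37 at day 4, and at 9.79, 7.78 and 8.04 at day 8. It was low in all day 4 samples, while those of day 0 and day 8 overlapped. S1pr1 was downregulated in the early phase (log2 fold change -1.68, SE 0.11, edgeR adjusted p = 1.6e-09) and upregulated in the late phase (1.55, SE 0.12, edgeR adjusted p = 2.1e-08). Over the whole process the log2 fold change was -0.13, with a 95% interval of -0.33 to 0.07 (edgeR adjusted p = 0.257). No other receptor of the 10 was called in opposite directions in the 2 phases.

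S1pr2 was the most abundant of the 10 at day 0 and day 4, at 33.8, 33.1 and 34.4 FPKM at day 0 and 26.7, 24.1 and 21.8 at day 4. It was at 24.8, 21.7 and 22.0 FPKM at day 8. Levels at day 0 lay above all later samples, and those of day 4 and day 8 overlapped. Its log2 fold change was -0.41 for the early phase (SE 0.07, edgeR adjusted p = 4.0e-05) and -0.45 for the whole process (SE 0.07, edgeR adjusted p = 1.5e-05), both under 2-fold. In the late phase it was -0.04 with a 95% interval of -0.17 to 0.10 (edgeR adjusted p = 0.678). Of the summed FPKM of S1pr1 and S1pr2, the S1pr1 share was 23.0 ± 2.51% on day 0, 11.2 ± 2.08% on day 4 and 27.2 ± 1.03% on day 8 (SD, n = 3). The stretch before S1pr2, chr9:20976794-20977043 on the minus strand, is shown as that of a receptor that was abundant throughout. Its capitals mark AGGTCA 205 bases and the cAMP response element TGACGTCA 181 bases before the start.
S1pr2: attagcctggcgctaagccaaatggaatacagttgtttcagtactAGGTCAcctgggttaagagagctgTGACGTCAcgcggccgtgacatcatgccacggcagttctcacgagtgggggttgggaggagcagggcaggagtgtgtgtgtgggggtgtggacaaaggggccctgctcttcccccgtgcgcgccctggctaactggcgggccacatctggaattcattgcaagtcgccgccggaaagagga
It has 59.2% G and C and 14 CpG. TGACGTCA occurred in 1.77% of all genes with an entry and in 1 of the 8 receptors.

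The order of the levels changed over the 3 days. At day 0 it was S1pr2, Lpar1, S1pr1 and Adora2b, each apart from the next in all samples, with the other 6 at or below 0.03 FPKM. At day 4 S1pr2 and Lpar1 still led, and Hcar1, Hcar2, S1pr1 and Ffar2 followed, with each neighbour in the order overlapping the next. Below them, Ffar4, Adora2b, Adora1 and Sucnr1 overlapped in the same way. At day 8 S1pr2, Hcar2, Ffar4 and Hcar1 overlapped as neighbours at the top, above Lpar1, then Ffar2 and S1pr1, then Sucnr1, Adora2b and Adora1. On days 0, 4 and 8, the 10 receptors summed to 72.9 ± 1.54, 56.2 ± 0.265 and 115.7 ± 2.77 FPKM (SD, n = 3). The 6 receptors that were near 0 at day 0 made up 0.059 ± 0.0557%, 20.1 ± 3.81% and 59.0 ± 3.82% of these sums.

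**Figure D2:**
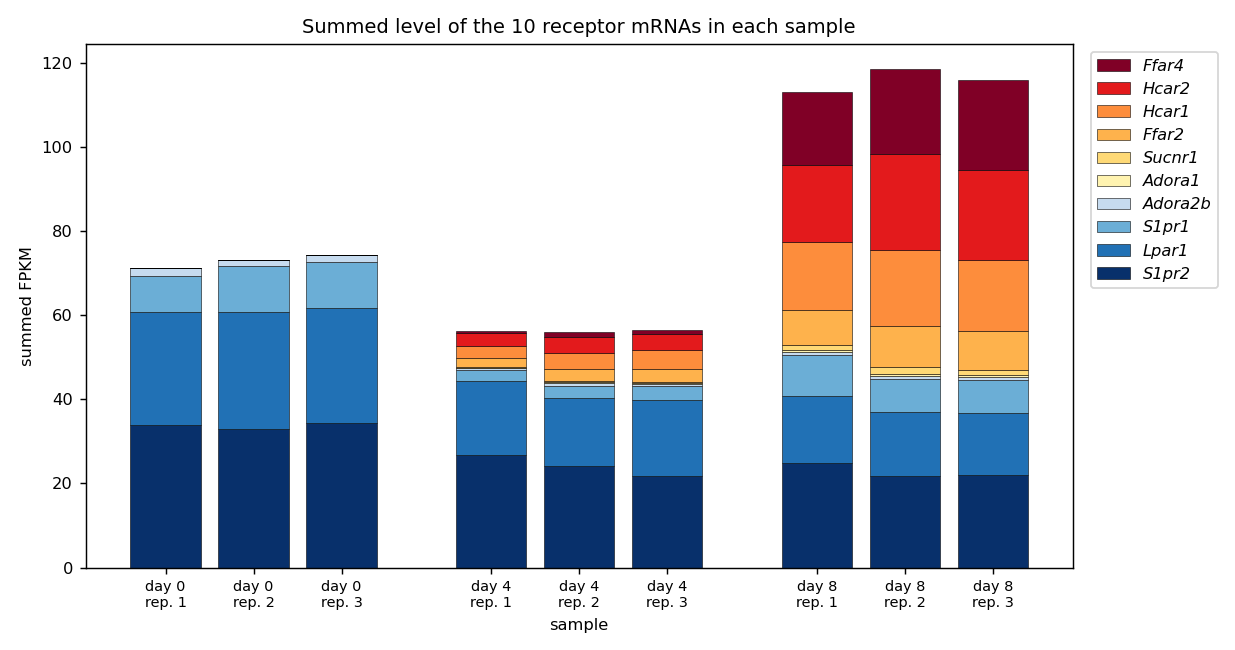
Summed FPKM of the 10 receptors (vertical axis, linear from 0) in each of the 9 samples, stacked by gene, with blues for the receptors present at day 0 and yellow to dark red for those near 0 at day 0. The mean sums are 72.9, 56.2 and 115.7 FPKM, and at day 8 Ffar4, Hcar2, Hcar1 and Ffar2 form most of the upper portion of each bar.

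For 5 of the 6 receptors that were near 0 at day 0, most of the day 8 level was reached after day 4. The day 4 mean was 4.57% of the day 8 mean for Ffar4, 16.5% for Sucnr1, 17.1% for Hcar2, 21.6% for Hcar1 and 29.3% for Ffar2. Adora1 had reached 65.4%. The same share was 43.2% for Cfd, 53.8% for Plin1, 56.9% for Adipoq, 83.9% for Fabp4 and 99.6% for Cidec, all adipocyte markers, and was as low as 17.7% for Lep (leptin). In the late phase, 3 of the 10 adipocyte markers were upregulated (Lep, Slc2a4 and Cfd), where 4.24% of all tested genes were. The difference between receptors and markers was not tested. Of the 121 tested genes with 0 to 3 counts in the day 0 samples together, 52 (43.0%) were upregulated in the late phase, but a gene that passed the filter on low counts through day 8 alone had to be higher there. Of those with at least 10 counts in each day 4 sample, which could pass through day 4, 24 of 79 (30.4%) were, with a median late log2 fold change of 0.03 and quartiles of -1.77 and 1.32.

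**Figure D3:**
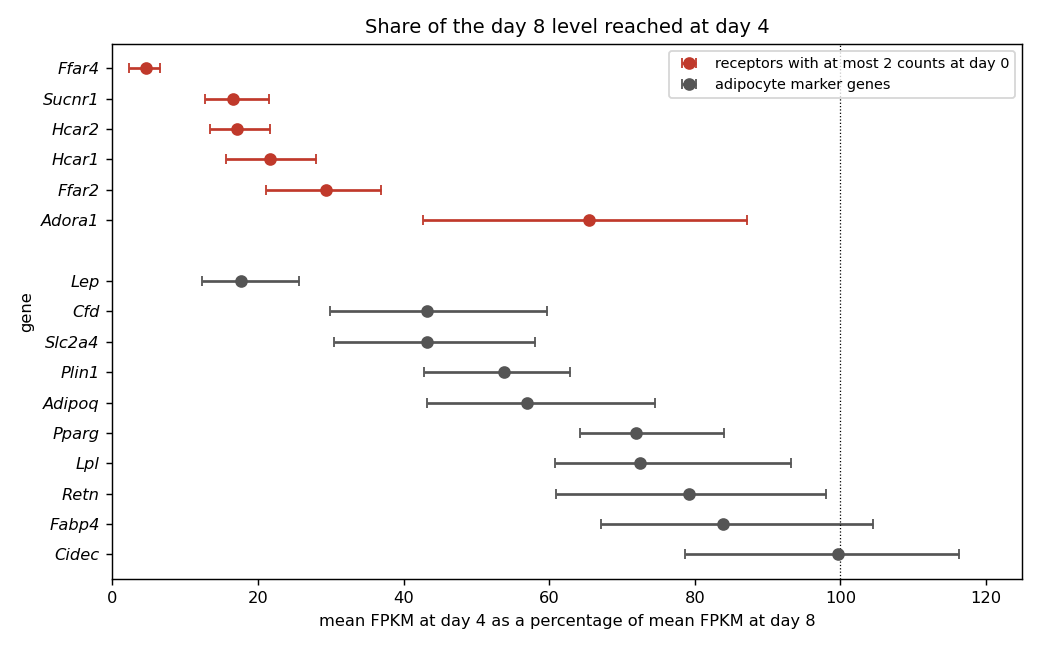
Mean FPKM at day 4 as a percentage of mean FPKM at day 8 (horizontal axis, linear) for the 6 receptors with at most 2 counts at day 0 (red) and the 10 adipocyte markers (grey). Bars run from the lowest day 4 sample over the highest day 8 sample to the highest day 4 over the lowest day 8 sample, and Ffar4 lies lowest at 4.57%.

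Replicates of a day differed in these receptors in a shared way. Of the day 4 samples, replicate 1 was lowest for Ffar2, Ffar4, Hcar1, Hcar2, Sucnr1 and Adora1. It was also lowest for Adora2b and S1pr1, but not for Lpar1 and S1pr2. The same sample had the lowest sum of adipocyte markers, 6108 FPKM against 7262 and 8761. Of the day 8 samples, replicate 1 was lowest for Ffar2, Ffar4, Hcar1, Hcar2 and Adora1, with an adipocyte marker sum of 9079 FPKM against 9894 and 9821. It was not the lowest for the other receptors. How far this spread bears on the results was not tested, and no call of a receptor changed when any 1 sample was left out.

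Hcar2 and Ffar2 are also known from neutrophils and macrophages, so the markers of those cells were examined. The neutrophil markers summed to between 1.78 and 2.09 FPKM in the day 0 samples, 5.04 and 7.91 in those of day 4, and 8.23 and 8.94 in those of day 8. S100a8 made up most of that sum on the later days, with means of 0.247, 4.28 and 7.12 FPKM at day 0, 4 and 8, while S100a9, Ly6g and Mpo had means of at most 0.0533 FPKM on any day. Cxcr2 made up most of the day 0 sum, was at means of 1.48 FPKM there and 1.04 FPKM at day 8 and was not called in any comparison, and Elane was at 0.0167, 0.13 and 0.24 FPKM and was not tested. The macrophage markers summed to 8.88 to 10.6 FPKM at day 0 and to 5.48 to 6.58 on the later days, with Cd14 the most abundant and Adgre1, Ptprc and Itgam at means of at most 0.0167 FPKM. Lyz2 (lysozyme) was at means of 1.80, 0.40 and 0.93 FPKM, downregulated in the early and upregulated in the late phase (log2 fold changes -2.10 and 1.25, edgeR adjusted p = 2.1e-05 and 0.0093), while Cd68 was at 1.32, 1.30 and 1.49 FPKM and was not called. Aif1 was at means of 1.69, 0.62 and 0.583 FPKM, downregulated in the early phase and in the whole process (log2 fold changes -1.36 and -1.41, edgeR adjusted p = 0.0016 and 0.0013). S1pr1 is abundant in endothelium, whose markers summed to between 0.82 and 1.15 FPKM in the day 0 samples, 0.28 and 0.45 in those of day 4, and 0.38 and 0.48 in those of day 8. Of this list, Vwf was downregulated in the early phase (log2 fold change -2.96, SE 0.25), and Pecam1 was upregulated in the late phase by edgeR (means of 0.133 and 0.257 FPKM at days 4 and 8, adjusted p = 0.0273) but not by DESeq2. The part of any of these markers in the receptors' values was not tested.

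As a further description, genes were ranked by Pearson's r of log2 CPM with each of 9 receptors over the 9 samples, among 11658 genes. Adora1 was left out, since its mean was under 1 FPKM on every day. The samples form 3 clusters by day, so r here mostly states how alike the 3 day levels are, and it carries no test. The gene most like Ffar2 was Hcar1 (r = 0.9996), and Ephx2 was among the nearest 3 of both. The nearest to Ffar4 were Tpi1, a glycolytic enzyme (0.9982), Apln (apelin, 0.9981) and Pdk1 (0.9976). For Hcar2 they were Dnmt3a, Slc25a34 and Trf, and for Sucnr1 they were Crtap, Cox7a1 and Lum. S1pr1 and Adora2b had fewer like genes, with 97 and 23 at r above 0.95, where Ffar2 had 1292. The nearest to S1pr1 was Rhoa (0.982) and the nearest to Adora2b was Tor4a (0.9933). For Lpar1 the nearest were Ccdc184, Bax and Dnajc10, and for S1pr2 Cacnb3, Xrcc5 and Zfp142.

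Genes that make, move or remove the ligands were followed through 6 lists. Counts of called genes are set beside the median log2 fold change of all tested genes, which was 0.02 in the early phase, -0.01 in the late phase and -0.02 in the whole process. The counts here and in the lists that follow are read against the shares of all tested genes that were upregulated and downregulated. These shares were 9.77% and 7.98% in the early phase, 4.24% and 2.81% in the late phase, and 10.3% and 7.70% in the whole process. Enpp1, Enpp3, Panx1, Slc29a3, Mfsd2b, Liph, Plpp1, Ldha, Bsg, Slc16a1, Slc16a3, Pdk4, Sdhb, Mgll, Acss2, P2ry6, Lpar5, Cmklr1, Cnr1, Snap25, Calca, Fap, Lyz2, Cd68, Aif1, Cxcr2, Elane and Pecam1 were named after their values had been seen.

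The list for fatty acids, the ligands of Ffar4 and Ffar2, had the highest median of the 6 in both phases. Its genes Plin1, Fabp4 and Lpl are also among the adipocyte markers, so the 2 lists are not independent. Of 12 tested genes for storage, release and uptake of fatty acids and the use of acetate, 11 were upregulated in the early phase, 2 in the late phase and 12 in the whole process, with early and late median log2 fold changes of 4.77 and 0.61. Fabp4, a fatty acid carrier, was at means of 9.52, 4052 and 4828 FPKM at day 0, 4 and 8. It was the most abundant of them at day 4 and day 8, while at day 0 it was below Lpl, at 117 FPKM. Plin1, a coat protein of lipid droplets, was at 0.177, 131 and 243 FPKM. Cd36, a fatty acid transporter, was at 0.113, 86.4 and 137 FPKM. The 2 genes upregulated in the late phase were Mgll, a lipase for monoglycerides, and G0s2, an inhibitor of adipose triglyceride lipase. Their log2 fold changes were 1.62 and 1.48 (SE 0.09 each). At an unadjusted p under 0.05 by edgeR, 8 of the 12 were higher in this phase and 2 lower. By the adjusted p alone, a stricter criterion, 2964 of all 13154 tested genes were higher and 2989 lower. Among those higher but under 2-fold were Plin1 and Cd36, at log2 fold changes of 0.94 and 0.71. Acss2, which activates acetate, was the gene not called in the early phase.

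For lactate, the ligand of Hcar1, 6 of 11 tested genes were upregulated in the early phase, 3 in the late phase and 7 in the whole process, with median log2 fold changes of 1.08, 0.47 and 1.76. Ldha, which makes lactate from pyruvate, was at means of 217, 437 and 770 FPKM at day 0, 4 and 8. Ldhb, the other subunit of lactate dehydrogenase, was at 50.1, 213 and 204 FPKM. The genes upregulated in the late phase were Pdk1, a kinase that restrains pyruvate oxidation, Bsg, the partner of lactate transporters, and Slc16a3, a lactate exporter. Their log2 fold changes were 1.33, 1.19 and 1.20. Slc16a3 was low, at means of 0.517, 0.503 and 1.12 FPKM at day 0, 4 and 8. Slc16a1, also a lactate transporter, was at 12.5, 10.7 and 14.1 FPKM and was not called. Ldha was higher by a log2 fold change of 0.86, under 2-fold. At an unadjusted p under 0.05 by edgeR, 8 of the 11 were higher in this phase and 1 lower. By the stricter adjusted p alone, 22.5% of all tested genes were higher. Hk2 and Pfkfb3, enzymes that push glycolysis, rose early by log2 fold changes of 1.85 and 1.91. Pdk4 rose in the early phase and fell in the late phase, with log2 fold changes of 1.41 and -1.95, and Pkm was the most abundant gene of the list without a call.

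For the ketone bodies and niacin sensed by Hcar2, 4 of 10 tested genes were upregulated in the early phase and 4 in the whole process. Nnmt and Nampt, enzymes of nicotinamide metabolism, rose early by log2 fold changes of 1.74 and 1.60, and Acat1 by 1.08. Oxct1, which lets cells burn ketone bodies, was the most abundant and was not called.

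For succinate, the ligand of Sucnr1, 3 of 11 tested genes were upregulated in the early phase, 0 in the late phase and 5 in the whole process by edgeR, with median log2 fold changes of 0.79, 0.16 and 0.96. Slc25a10, the mitochondrial carrier that exchanges succinate and malate, was at means of 9.51, 74.5 and 107 FPKM. Suclg1, a subunit of the enzyme that makes succinate, and Sdhd, a subunit of the enzyme that oxidises it, rose early by log2 fold changes of 1.14 and 1.04. Sdhb and Aldh5a1 were called over the whole process, at 1.04 and 1.16, and Sdhc was the most abundant. In the late phase 6 were higher at an unadjusted p under 0.05, where 22.5% of all tested genes were higher by the stricter adjusted p alone. DESeq2 also called 0 in that phase.

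For adenosine, 13 genes were tested. Of these, 1 was upregulated and 3 were downregulated in the early phase, 1 and 1 in the late phase, and 1 and 1 in the whole process. Entpd2, an ectoenzyme that degrades ATP, was at means of 0.813, 3.21 and 4.27 FPKM and was upregulated in the early phase (log2 fold change 2.03, SE 0.21). The genes downregulated in the early phase were Enpp1 (-1.98), Enpp3 (-1.73) and Panx1 (-1.49), the last a channel that releases ATP. Enpp1 rose again in the late phase (2.04), and Slc29a3 fell (-1.24). Slc29a1, the main carrier of adenosine across the membrane, was the most abundant, at 147, 159 and 124 FPKM, and was not called.

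For lysophosphatidic acid and sphingosine 1-phosphate, 6 of 18 tested genes were upregulated in the early phase, 1 was upregulated and 2 downregulated in the late phase, and 4 and 1 in the whole process. Enpp2 (autotaxin), the secreted enzyme that makes lysophosphatidic acid, was at means of 59.0, 124 and 321 FPKM and was upregulated in both phases, with log2 fold changes of 1.13 and 1.42 (SE 0.09 each). Lpar1 was lower at the later days than at day 0. Sphk1, which makes sphingosine 1-phosphate, was at 1.62, 28.6 and 9.66 FPKM, with log2 fold changes of 4.19 in the early and -1.51 in the late phase (SE 0.12 and 0.09). S1pr1 fell in the early and rose in the late phase. Acer2, Plpp1, Liph and Mfsd2b were the other genes upregulated in the early phase, and Mfsd2b was downregulated in the late phase. Sgpl1, the lyase that breaks sphingosine 1-phosphate down, was downregulated over the whole process (log2 fold change -1.04, SE 0.06). DESeq2 called 5 of the 18 upward in the early phase and 1 downward in the late phase, and 5 upward in the whole process.

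**Figure D4:**
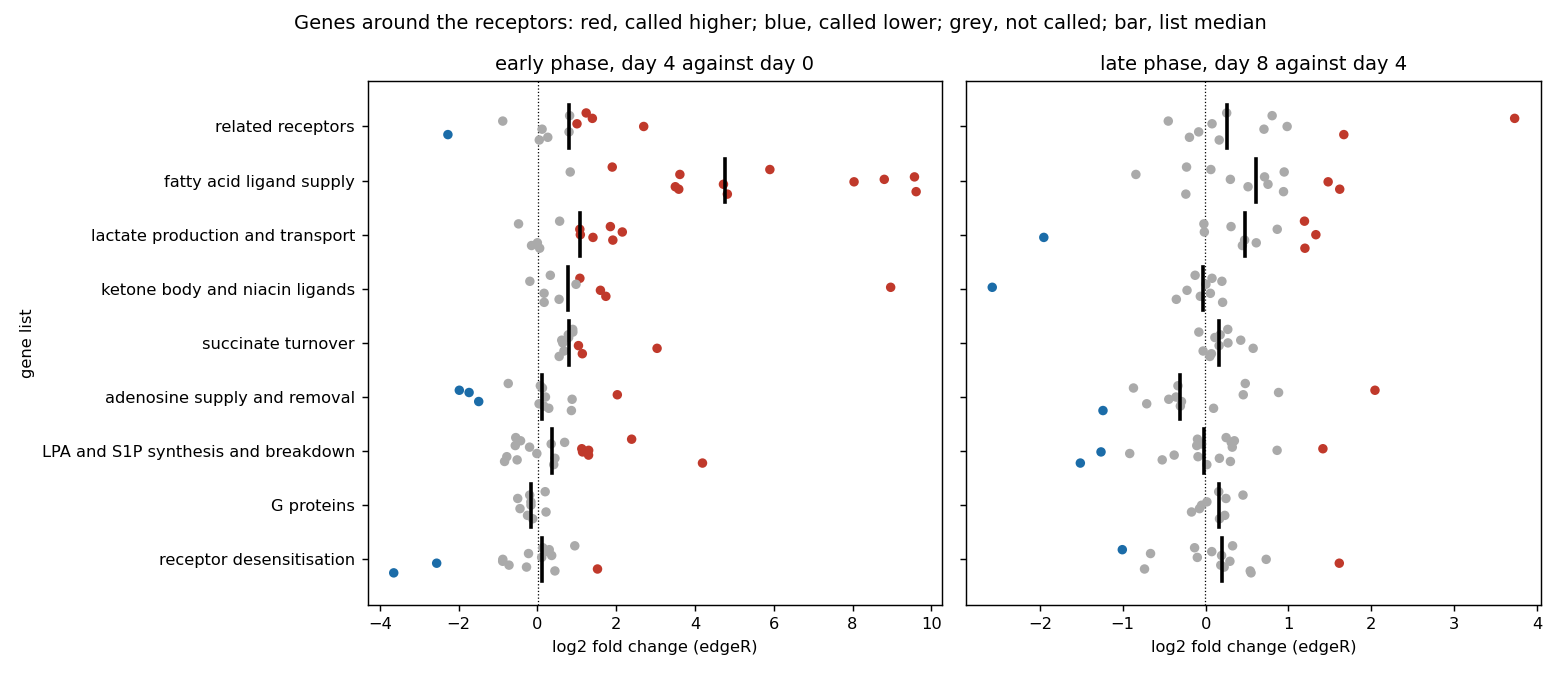
edgeR log2 fold change (horizontal axes) of the tested genes in 9 lists around the receptors, for the early phase (left) and the late phase (right), with red for upregulated, blue for downregulated and grey for genes without a call, and a black bar at the median of each list. The fatty acid list has its early median at 4.77, and all genes of the G protein list are grey in both panels.

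Other receptors for nucleotides, lipids and metabolites were mostly at low levels. Of 40 further receptors, 29 were listed in some sample, 25 of these stayed under a mean of 1 FPKM on every day, and 11 were tested. Of the tested, 4 were upregulated and 1 was downregulated in the early phase, 2 were upregulated in the late phase, and 5 were upregulated and 1 was downregulated in the whole process. Gpr35, a receptor for kynurenic acid, was at means of 0.0633, 0.157 and 1.98 FPKM, with a late phase log2 fold change of 3.73 (SE 0.30, edgeR adjusted p = 4.0e-08). Lpar4 was at 5.57, 10.7 and 10.9 FPKM and was upregulated in the early phase (log2 fold change 1.00, SE 0.07), the phase in which Lpar1 was lower. S1pr3 was the most abundant, at 15.5, 15.3 and 16.6 FPKM, and was not called. P2ry6 was downregulated in the early phase and upregulated in the late phase (log2 fold changes -2.27 and 1.67). Lpar5 and Cmklr1 (2.70 and 1.24) and Gpr35 itself (edgeR adjusted p = 0.036) were also upregulated in the early phase. Lpar5 and Gpr35 were near 0 at day 0 (0.0733 and 0.0633 FPKM), so the limit of the filter on low counts may hold for them too. Called in the whole process alone were Cnr1 upward and Lpar2 downward (1.62 and -1.33).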

How the data were processed

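RNA-seq of 9 samples of 3T3-L1 cells was analysed. Per the study's methods, the authors cleaned the reads of adaptors and low quality, aligned them by HISAT/Bowtie2, and quantified genes by RSEM. The methods name an Illumina platform and the labels a BGIseq500 library kit. The submitters' processing notes name Bowtie2 and CASAVA 1.4, and the genome build is not given in the sources used here. The authors deposited, for each gene listed in a sample, the expected count of RSEM (an estimated count, not normalized, 29.8% of them not whole) and the FPKM, scaled by gene length and depth. Each file lists genes with an FPKM of 0.01 or more, and a gene not listed was taken as 0. Of the gene IDs, 19040 matched the reference table of RefSeq names, and 26 date-like symbols were replaced by the symbol of their ID.

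Expected counts were rounded and tested with edgeR 4.0.16 in R 4.3.3 (TMM factors 0.954 to 1.05, filterByExpr by day, quasi-likelihood F-test, all 9 samples in one model with a coefficient per day). Genes were called at a Benjamini-Hochberg adjusted p under 0.05 over 13154 tested genes and a change above 2-fold. The common biological coefficient of variation was 0.0538. The floor of bounds against day 0 was 3 counts per library, on average 0.147 CPM (counts scaled to the library total times its TMM factor) over the day 0 samples. This floor and the 95% intervals of ratios to day 0, which are exact for 2 Poisson counts, cover counting error only. On simulated data with 200 of 13154 genes changed 4-fold in the early phase, edgeR recovered 200 with 0 false calls, DESeq2 199 and limma 193. The changed genes were drawn without those of low counts and all genes had the same spread. The simulation therefore does not cover receptors near 0 at day 0.

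Alternatives were RLE and upper-quartile factors, library size alone, no filter, at least 10 counts in every sample, DESeq2 1.42.0, edgeR's exact test, limma 3.58.1 on log2(FPKM + 1) and log2(FPKM + 0.1), separate models for the days compared, a replicate block, an adjusted p alone and leaving out each sample. The receptors and all gene lists were chosen with earlier results of these data known. By rule, the text names all 10 receptors, up to 4 genes per list with the largest called whole-process change (average log2 CPM of at least 1 and no overlap between day 0 and day 8), the most abundant gene of each list, the 3 genes most alike to each receptor with a mean of at least 1 FPKM on some day, and marker genes. Some genes that this rule names are not reported here. Promoter sequences are from RefSeq on GRCm38.p6, and shared 50-base stretches from GENCODE vM21 transcripts. Adjacent genes are those of the RefSeq annotation of GRCm38.p6.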

Additional observations from a re-analysis of the deposited data

How the results depend on the processing

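Of 611 log2 fold changes of the 10 receptors under the alternatives, 597 kept their direction and their side of the threshold. The late phase value of S1pr2, near 0 throughout, turned positive without day 4 replicate 1 (0.0375) and without day 8 replicate 3 (0.0042), and ranged from -0.11 to 0.0375 when any 1 sample was left out. No receptor call changed when any 1 sample was left out. Counts of upregulated and downregulated receptors then stayed at 6 and 2 in the early phase, 6 and 0 in the late phase and 6 and 1 in the whole process. With at least 10 counts in every sample, only 4 receptors could be tested, and 0, 1 and 0 were upregulated in the early phase, late phase and whole process. All genes upregulated were then 831 (early) and 310 (late) and all genes downregulated 173 (late), against 1285, 558 and 370. With limma on log2(FPKM + 1), whose pseudocount compresses changes of genes near 0, 3 receptors were upregulated and 1 downregulated in the early phase and 0 downregulated in the whole process. All genes up and down were then 708 and 565 (early), 224 and 136 (late) and 753 and 528 (whole). The calls lost were early Ffar4 (0.90), Sucnr1 (0.30), Adora1 (0.37) and Adora2b (-0.84), late Sucnr1 (0.96) and whole Adora1 (0.53) and Adora2b (-0.63). By the adjusted p alone, 4 receptors were downregulated early and 3 over the whole process, with Lpar1 and S1pr2 added, and Adora1 was added upward in the late phase. All genes up and down were then 4676 and 4430, 2964 and 2989, and 4583 and 4756 (early, late, whole). The fitted values against day 0 of receptors near 0 there depend on 0 to 2 counts and are not quoted as folds. Library size alone moved the median of all genes to -0.13 in the whole process, against -0.02 with TMM, and changed no receptor call.

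With a replicate block the receptor counts were 6 and 2, 6 and 0, and 6 and 1, all genes 1287 and 1053, 556 and 367, and 1360 and 1010, and no receptor call changed. The deviations of same-numbered samples from their day means correlated at 0.0289 on average (9 pairs, -0.0458 to 0.143, 1 above 0.1). Samples of different number correlated at -0.0146 on average. Whether same-numbered samples shared a culture or a batch was not tested.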

Other observations

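Of 9 tested G protein alpha subunits, 0 were called in any comparison by edgeR or DESeq2, while 2 were higher and 7 lower in the early phase at an unadjusted p under 0.05. By the adjusted p alone, a stricter criterion, 4676 of all 13154 tested genes were higher and 4430 lower in that phase. Gnas, which raises cyclic AMP, was at means of 1150, 1031 and 1109 FPKM at day 0, 4 and 8, and Gnai2, which lowers it and is named after its values were seen, at 407, 346.5 and 340. Of 15 tested genes for receptor desensitisation, 1 was upregulated and 2 were downregulated in the early phase, 1 and 1 in the late phase, and 1 and 1 in the whole process. Rgs2, a regulator that shortens G protein signals, was at 21.4, 58.8 and 34.2 FPKM and rose in the early phase (log2 fold change 1.53, SE 0.05). It was the most abundant of them in the mean over the 9 samples, while Rgs19 was higher at day 0 and day 8 (39.1 and 35.3 FPKM). Rgs4 was at 2.84, 0.213 and 0.303 FPKM and fell in the early phase (-3.65, SE 0.32). Rgs16 and Grk1, named after their values were seen, made up the remaining calls of both phases, Rgs16 with -2.56 in the early and 1.61 in the late phase and Grk1 with -1.01 in the late phase, a call that DESeq2 did not make. Arrb1, which uncouples active receptors, was upregulated over the whole process (1.27).

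Of the 18 neighbouring genes that are not among the 10, 16 were listed and 9 tested. By edgeR, 3 of the 9 were called, all of them downregulated in the early phase and in the whole process (Specc1 beside Adora2b, Kntc1 beside Hcar2 and Dnmt1 beside S1pr2), where 7.98% and 7.70% of all tested genes were. Rbp4, which lies beside Ffar4 and is named after its values were seen, did not exceed a mean of 0.02 FPKM on any day.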
